A study of Mus musculus with 20 samples.

Results

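The comparison described here held 6 of the 20 RNA-seq libraries of a study of laser exposure in N2A cells, a mouse neuroblastoma line. The 3 libraries of I2-E2 were set against the 3 libraries of I0-E0, chosen by their labels as the pair of exposures that shared a pixel dwelling time and differed in power. Both groups were scanned with a single femtosecond-pulsed near-infrared laser through a 20X objective at 2 µs per pixel, and cells were lysed for RNA 1 h later. I0-E0 received an average power of 20 mW, which corresponds to an average intensity of 47.7 mW/µm2 and a fluency (the energy delivered per area) of 9.54 J/cm2. I2-E2 received 100 mW, or 239 mW/µm2 and 47.7 J/cm2. Intensity and fluency were therefore both 5 times higher in I2-E2, and the comparison cannot tell them apart. Levels in the 3 negative control (NC) libraries of the same batch, which were handled alike without laser irradiation, are given beside the values as background. The labels give each library a replicate number but no culture of origin, and the study describes exposure of whole wells. The p-values and intervals below therefore speak of the spread among these samples alone, and that spread may be technical. The study gives no other treatment or genetic change for these cells.

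A pulsed near-infrared beam can harm a cell through linear absorption, which warms it, and through multiphoton absorption, which grows steeply with intensity and can form reactive oxygen species. Cells are known to answer heat by inducing chaperone genes through HSF1, oxidants through NRF2 targets such as Hmox1 and Srxn1, misfolded protein in the endoplasmic reticulum through chaperones such as Hspa5, and DNA breaks through p53 targets such as Cdkn1a and Mdm2. Immediate-early genes such as Fos and Egr1 respond within minutes to many stimuli, and many of these programmes can be read in mRNA within the first hour. The comparison asks whether such transcripts, or any others, differed with the intensity of the beam when each pixel was dwelt on equally long.

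The libraries held 7298229, 5808532 and 8417609 estimated reads in I2-E2 and 8022804, 7606317 and 8059622 in I0-E0. All carried neuronal transcripts. Elavl4, a neuronal RNA-binding protein gene, lay between 179 and 209.6 CPM (counts scaled to a fixed sum per library, here by its total) in the 6 libraries, the neuronal tubulin Tubb3 between 709 and 786, and the growth-cone protein gene Stmn2 between 327 and 374, while Nefm was at or near 0. Of 28 N2A identity genes 24 were expressed at a level that could be tested. Markers of other cell types were mostly at low levels. The summed level of 10 macrophage markers was 0.965 to 2.51 CPM in I2-E2 and 1.13 to 5.00 in I0-E0, that of 9 epithelial markers 0.478 to 1.04 and 1.13 to 1.37, and that of 8 erythroid markers 0.866 to 0.965 and 0.397 to 1.75. Fibroblast markers summed to 7.77 to 9.01 and 6.35 to 10.1 CPM, glial markers to 7.86 to 11 and 10.2 to 11.2, and endothelial markers to 29.6 to 36.8 and 30.0 to 46.6. The upper end of the last range was I0-E0 replicate 3, where the endothelial adhesion gene Pecam1 was at 17.3 CPM against 4.28 to 8.17 in the other 5 libraries. Its log2 fold change was -0.42 with that library and 0.44 without it. Eng, an endothelial co-receptor of TGF-beta ligands, was at 20.7 to 23.6 CPM in all 6 libraries. The defining genes Lyz2, C1qa, Krt5, Krt18, Hba-a1, Cldn5 and Olig2 had no read in any of the 6 libraries.

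One library stood apart. I0-E0 replicate 3 held reads of 20060 genes, against 16049 to 17234 in the other 14 libraries of the batch, and 1378 genes had reads in it alone, against 123 to 229 in each other library. These genes were silent elsewhere and were read thinly here. Together they held 1960 reads, which is 0.0245% of the library, 970 of them were read only once, and the largest count was 7, for the keratin gene Krt77 (chr15:101858731-101869705, GRCm38). The set included 714 protein-coding genes and 631 pseudogenes, it spread over all 21 nuclear chromosomes, and long transcripts were read more often. Of the 10227 genes silent in the other 14 libraries, 5.18% of the shortest 20% and 29.9% of the longest 20% by exon length were read in I0-E0 replicate 3. With every library thinned to the smallest total, 5587647 counts, 1239 genes remained read in it alone, against 131 to 238 in the others. None of the 1378 genes entered the test, since all were under its minimum. More widely, the 18297 genes that averaged under 1 read in the other 14 libraries held 8529 reads, or 0.107%, of I0-E0 replicate 3, against 0.0231% to 0.0423% of each other library.

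**Figure D1:**
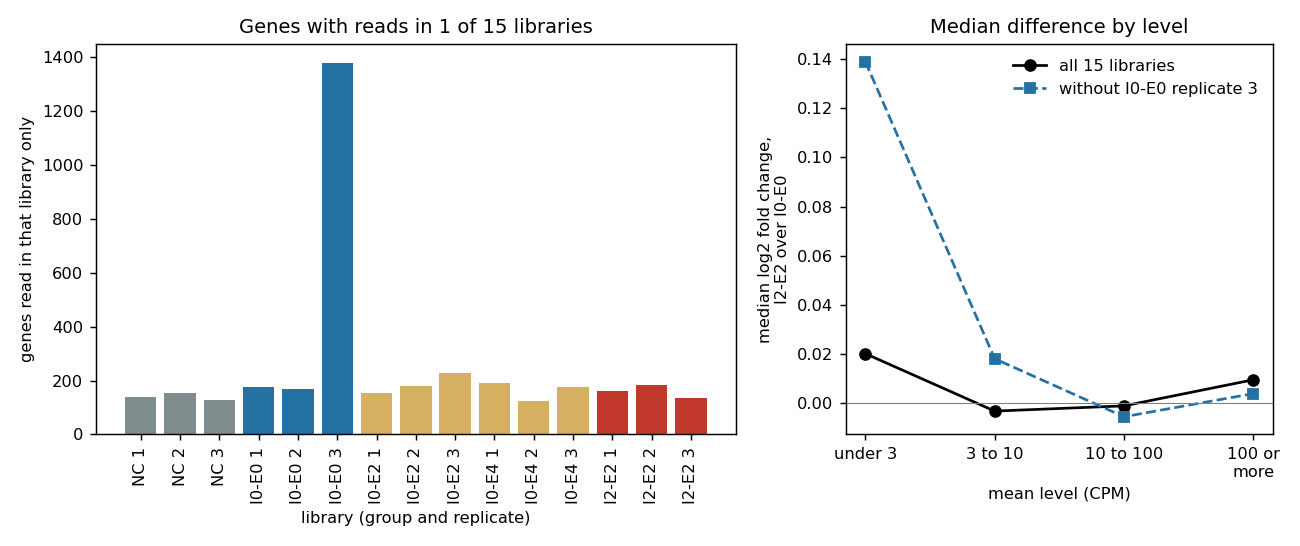
Left, the number of genes read in that library and in none of the other 14, for each of the 15 libraries of batch 1 (grey NC, blue I0-E0, red I2-E2, ochre the other exposures). I0-E0 replicate 3 reached 1378 and every other library stayed at or under 229. Right, the median log2 fold change of I2-E2 over I0-E0 by the mean level of the genes, from the fit with all libraries (black) and from the fit without I0-E0 replicate 3 (blue, dashed), which differed most for genes under 3 CPM.

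Across the transcriptome the higher intensity was not accompanied by a difference that passed the test. Of 12302 expressed genes, 0 (0%) reached an adjusted p of 0.05 in edgeR's quasi-likelihood test, in either direction and with the Benjamini-Hochberg or the Bonferroni procedure. An unadjusted p under 0.05 was found for 753 genes (6.12%), where 5% of the genes tested is 615.1, and of these 341 (2.77%) were higher and 412 (3.35%) lower in I2-E2. The 3 I2-E2 libraries all lay above the 3 I0-E0 libraries for 562 genes (4.57%) and all below for 692 (5.63%). limma-voom called 0 genes as well, with 744 at an unadjusted p under 0.05. DESeq2 called 2 entries, both of the gene Fam220a, with 499 genes at an unadjusted p under 0.05. The smallest adjusted p in edgeR was 0.0690, for the same pair of Fam220a entries. In bulk RNA, fewer cells that carry a transcript and less of it per cell cannot be told apart.

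The libraries were alike enough to bound most differences. Among genes of at least 10 CPM the median coefficient of variation between the 3 libraries was 8.03% in I2-E2, 6.57% in I0-E0 and 5.50% in NC. The median log2 fold change over all genes was 0.00, and 95% of genes lay between -0.52 and 0.51. For 9297 genes (75.6%) the 95% confidence interval of the difference lay wholly within 1.5-fold in either direction, and for 10790 (87.7%) within 2-fold. This precision depended on level. The interval lay within 1.5-fold for 99.0% of the 2496 genes of 100 CPM or more and for 95% of the 6590 genes from 10 to 100 CPM, but for 32.4% of the 1744 genes from 3 to 10 CPM and 0.136% of the 1472 genes below that. A log2 fold change beyond 1 in either direction was fitted for 143 genes, of which 116 lay under 3 CPM.

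Without I0-E0 replicate 3 fold changes of well-expressed genes moved little, while fewer of these genes had a low p. The log2 fold change moved by a median of 0.026 for genes of at least 10 CPM and by 0.17 for genes under 3 CPM. The median of the latter went from 0.02 to 0.14. Genes at an unadjusted p under 0.05 went from 122 to 56 at 100 CPM or more and from 429 to 312 at 10 to 100 CPM, against 109 to 108 at 3 to 10 CPM and 93 to 85 below that. Of the 753 genes at an unadjusted p under 0.05, 380 stayed there (50.5% of these, and 66.1% of the 575 found without the library), and 3 of the 753 changed sign. A fall in this count was not particular to that library. It was 590 without I2-E2 replicate 2, 655 without I0-E0 replicate 2 and 685 without I2-E2 replicate 1, but 961 without I0-E0 replicate 1 and 1223 without I2-E2 replicate 3. Without I0-E0 replicate 3 one gene entry passed the adjusted threshold, the lower of the Fam220a pair (adjusted p = 0.0274, edgeR).

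The count of calls depended on the filter for low counts. With every gene of at least 1 read kept, edgeR called 91 of 25313 genes, 46 higher and 45 lower, with an adjusted p under 0.05. The fit then shrank the spread of all genes fully to a common trend (infinite prior degrees of freedom, against 7.02 with the filter). Of the 91 calls 86 had also been tested with the filter, 51 with an unadjusted p under 0.05, and 73 share sequence with other genes. The strongest call among the 18 of largely unique sequence was Pi4ka, a phosphatidylinositol kinase gene, with a log2 fold change of -0.74. Its levels were 91.2, 40.3 and 7.58 CPM in I2-E2 and 74.4, 69.4 and 85.2 in I0-E0, so the groups overlapped and I2-E2 replicate 3 lay far below the rest. The odorant receptor gene Olfr729 was called lower on 3.61, 2.84 and 1.18 CPM against 0.377, 2.24 and 21.2, where I0-E0 replicate 3 alone was high. Of these 18 genes 10 had groups that did not overlap, among them Enc1, Cabp1, Fem1b, Pnrc1 and Atmin, which are described below. Without both the filter and I0-E0 replicate 3, a setting chosen after seeing the data, 65 genes were called, of which 62 share sequence.

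**Figure D2:**
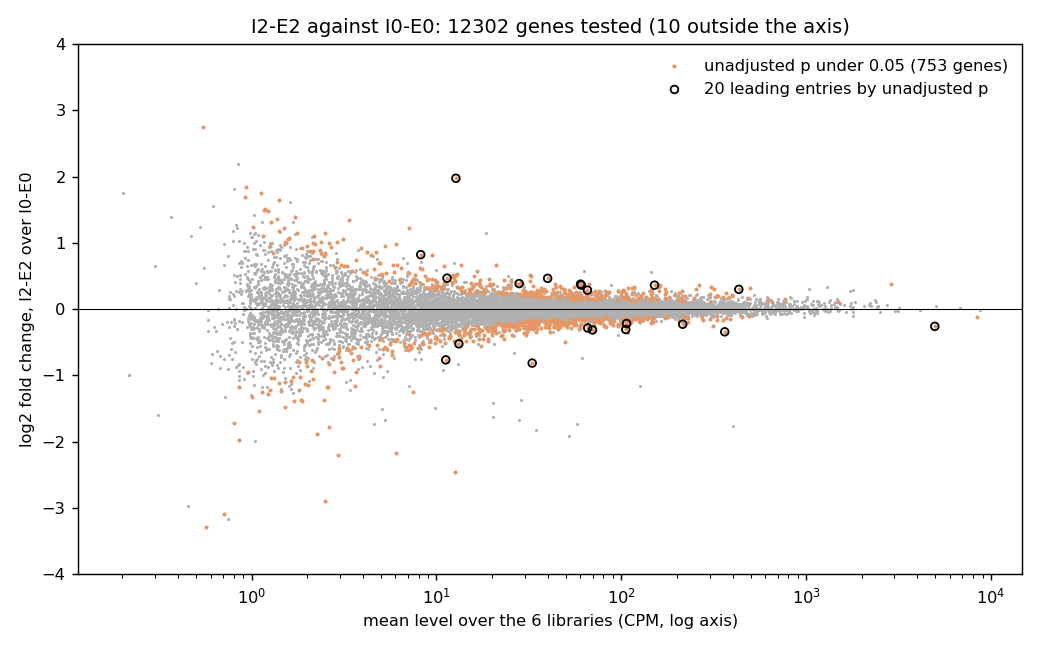
Log2 fold change of I2-E2 over I0-E0 against the mean level over the 6 libraries (CPM, log axis) for 12302 genes, 1 point per gene. Orange marks the 753 genes at an unadjusted p under 0.05, black circles the 20 leading gene entries, and 10 genes lie outside the axis limit of 4. Points close in on 0 as the level rises.

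Fam220a, whose product binds STAT3, led the comparison in both directions, as the annotation holds it as a pair of gene entries at the same place (chr5:143548706-143564531 and chr5:143548708-143564531, GRCm38). The entry ENSMUSG00000118332 was at 22.6, 25.6 and 23.6 CPM in I2-E2 and at 48.0, 41.6 and 36.4 in I0-E0, a log2 fold change of -0.82 (SE 0.13, adjusted p = 0.0690). The entry ENSMUSG00000083012 was at 20.7, 22.9 and 17.4 CPM in I2-E2 and at 3.14, 6.32 and 5.98 in I0-E0, a log2 fold change of 1.97 (SE 0.32, adjusted p = 0.0690). Of the 31-base words of these entries 1.17% and 38.8% occur in no other gene, so reads of one cannot be told from reads of the other over most of their length. Their sum was 43.3, 48.5 and 41.0 CPM in I2-E2 and 51.2, 47.9 and 42.3 in I0-E0, groups that overlap, with a log2 fold change of -0.10 (95% interval -0.28 to 0.08, adjusted p = 0.922). The fitted differences of the entries thus had opposite directions, and neither the entries nor their sum passed the test with all libraries. The NC libraries were split over both patterns, with 22.4, 7.27 and 21.8 CPM for the second entry.

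None of the leading genes that were lower in I2-E2 passed the test with all libraries, Fam220a included. Atmin (chr8:116943393-116960445), which encodes a cofactor of the DNA damage kinase ATM, was at 60.8, 62.4 and 63.6 CPM in I2-E2 and at 73.8, 79.4 and 79.2 in I0-E0. The groups did not overlap, and NC lay between them at 71.0 to 73.2 CPM. Its log2 fold change was -0.32 (SE 0.06, adjusted p = 0.258). Cnr1 (chr4:33924593-33948831), the cannabinoid receptor CB1, was at 56.4, 59.3 and 62.1 CPM against 71.1, 74.0 and 72.0, with NC at 66.5 to 74.1, and a log2 fold change of -0.29 (SE 0.06, adjusted p = 0.479). Over 95% of the 31-base words of both genes occur in no other gene, which also holds for Enc1, Fem1b, Ncs1, Rpf1, Cabp1, Pnrc1 and Narf.

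Enc1 (chr13:97241105-97253034), an actin-binding protein of neuroectoderm, was at 327, 302 and 331 CPM in I2-E2 and 409, 411 and 396 in I0-E0 (log2 fold change -0.34, SE 0.08). Fem1b, which recognises substrates for a CUL2 ubiquitin ligase, was at 97.9, 87.9 and 97.2 CPM against 116, 118 and 117 (-0.31, SE 0.07). Ncs1, a neuronal calcium sensor, was at 98.2, 95.2 and 103 CPM against 117, 113 and 115 (-0.22, SE 0.05). For Enc1 and Fem1b the NC mean was closer to I0-E0, and for Ncs1, at 102 to 105 CPM in NC, it was closer to I2-E2. Their adjusted p-values were 0.479, 0.588 and 0.599. The cytoplasmic actin gene Actb was at 4549, 4425 and 4573 CPM against 5280, 5069 and 5887, a log2 fold change of -0.26 (SE 0.06, adjusted p = 0.479) that was -0.20 without I0-E0 replicate 3, its highest library. Part of its sequence is shared with other genes. The rest of the lower group were Fastkd5 (-0.77), Zfp87 (-0.53) and AC149090.1 (-0.23). Fastkd5 and Zfp87 share sequence and exons with other genes, and AC149090.1 lies on an unplaced scaffold where uniqueness was not checked.

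The leading genes that were higher in I2-E2 included several whose products act on RNA. Rpf1 (chr3:146505956-146521429), a factor of large ribosomal subunit assembly, was at 71.6, 73.0 and 71.5 CPM in I2-E2 and at 58.5, 60.7 and 58.1 in I0-E0, with NC at 61.2 to 62.7. Its log2 fold change was 0.29 (SE 0.06, adjusted p = 0.479), and the groups were well apart. Ccnl1, a cyclin of splicing kinases, was at 60.1, 72.5 and 72.4 CPM against 50.9, 53.3 and 55.3 (0.36, SE 0.09). Pabpn1, the nuclear poly(A)-binding protein gene, was at 160, 188 and 162 CPM against 140, 130 and 127 (0.36, SE 0.10), and Safb2, a scaffold attachment factor, at 62.9, 73.2 and 67.9 against 55.3, 54.3 and 47.4 (0.38, SE 0.10). The adjusted p of the last 3 genes was 0.617 each. In NC replicate 3 all 3 were above the highest I0-E0 library, at 64.8, 154 and 62.6 CPM, which for Ccnl1 lay among the I2-E2 libraries and for the others below them. Each of the 3 shares part of its sequence with other genes.

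Cabp1, a neuronal calcium-binding protein gene, was at 46.2, 48.0 and 44.9 CPM in I2-E2 and at 37.1, 30.2 and 33.4 in I0-E0 (log2 fold change 0.46, SE 0.12). Pnrc1, a nuclear receptor coactivator, was at 10.8, 10.1 and 10.5 CPM against 5.78, 6.19 and 5.85, a 1.77-fold difference (log2 fold change 0.82, SE 0.22), with NC at 4.33, 4.72 and 7.73. Narf (0.47) and Tedc2 (0.38) were also in the group, and these 4 had an adjusted p of 0.617. Of the 20 leading entries, the NC mean was closer to I0-E0 in 15 and closer to I2-E2 in 5, which include both Fam220a entries. The share over all genes tested was not computed, so these counts describe the chosen entries only. All 20 kept an unadjusted p under 0.05 without I0-E0 replicate 3, beside 50.5% of the 753 genes with such a p in the full fit. They were chosen for small p-values and for groups that do not overlap, as 10.2% of all genes tested do. Their separation and their low p in a fit that shares most libraries are therefore a description. Against NC, which both comparisons share, 886 genes had an unadjusted p under 0.05 in I2-E2 and 414 in I0-E0. For scale, 5% of the 12302 genes tested is 615.1, which lies between these counts. In either comparison 0 genes passed the adjusted threshold.

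**Figure D3:**
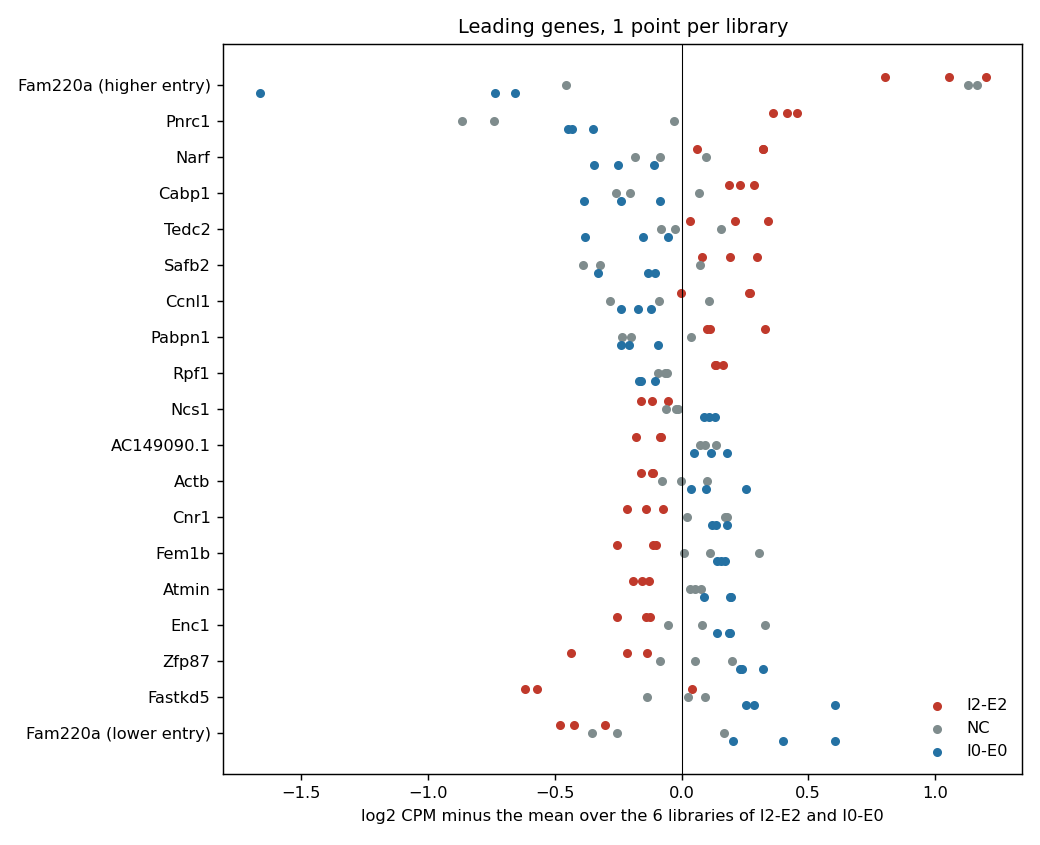
Log2 CPM of the leading gene entries described in the text in each library of I2-E2 (red), I0-E0 (blue) and NC (grey), less the mean over the 6 libraries of I2-E2 and I0-E0, 1 point per library. Red and blue points do not overlap by the rule that chose the genes, and the Fam220a entries sit at opposite ends.

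The stress and cell cycle markers gave no sign that passed the test. Of 24 markers 21 could be tested, 11 above 0 and 10 below, with log2 fold changes from -0.23 to 0.28 and a median of 0.05, against a median of 0.00 over all genes. None of the 21 had an unadjusted p under 0.05 with all libraries. The inducible chaperone genes Hspa1a, Hspa1b and Hspb1 could not be tested because they were nearly silent, with at most 1 read in any library of either group. Hsph1, the chaperone HSP110, was at 477, 448 and 477 CPM in I2-E2 and at 500, 490 and 468 in I0-E0, with a 95% interval of the log2 fold change from -0.16 to 0.05. Dnajb1, a cochaperone induced by heat, was at 66.2, 65.7 and 62.4 CPM against 75.8, 62.8 and 69.5, with an interval from -0.29 to 0.09.

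Among oxidant-responsive markers, Hmox1, heme oxygenase 1, was at 51.8, 56.3 and 49.5 CPM in I2-E2 and at 46.5, 42.5 and 51.5 in I0-E0. The groups overlapped, and the log2 fold change was 0.16 (95% interval -0.02 to 0.34, adjusted p = 0.866, edgeR). Without I0-E0 replicate 3 the log2 fold change of Hmox1 was 0.23 (SE 0.09). Its unadjusted p in that edgeR fit was 0.023 and its adjusted p 0.998. Srxn1, sulfiredoxin, had 0.27 (-0.11 to 0.64), Nqo1 -0.23 (-0.63 to 0.17) and Txnrd1, thioredoxin reductase, -0.03 (-0.14 to 0.09). The estimates of these genes lay on both sides of 0, and with all libraries each interval includes 0, so no direction is established for any of them. For the integrated stress and unfolded protein responses, the transcription factor gene Ddit3 had -0.01 (-0.26 to 0.23), Atf3 0.23 (-0.14 to 0.60) and the chaperone Hspa5 0.07 (-0.04 to 0.18).

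The p53 target Cdkn1a, the inhibitor p21, was at 41.8, 44.2 and 47.1 CPM in I2-E2 and at 40.9, 41.1 and 39.0 in I0-E0. The groups did not overlap, by less than 1 CPM, and NC at 42.5 to 44.4 lay among the I2-E2 libraries. Its log2 fold change was 0.14 (95% interval -0.01 to 0.29). Gadd45a had 0.28 (-0.03 to 0.60) and Mdm2, the ligase that holds p53 down, -0.03 (-0.15 to 0.08). The immediate-early genes Fos and Egr1 had 0.00 (-0.35 to 0.34) and -0.20 (-0.53 to 0.14), and the proliferation genes Mki67, Pcna and Ccnb1 had 0.11 (-0.08 to 0.31), 0.10 (-0.04 to 0.23) and 0.00 (-0.11 to 0.11). For Ccnb1, Hsph1, Txnrd1, Mdm2 and Hspa5 the interval lay within 1.2-fold in both directions, whereas for Nqo1, Srxn1, Atf3 and Gadd45a it reached past 1.5-fold.

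**Figure D4:**
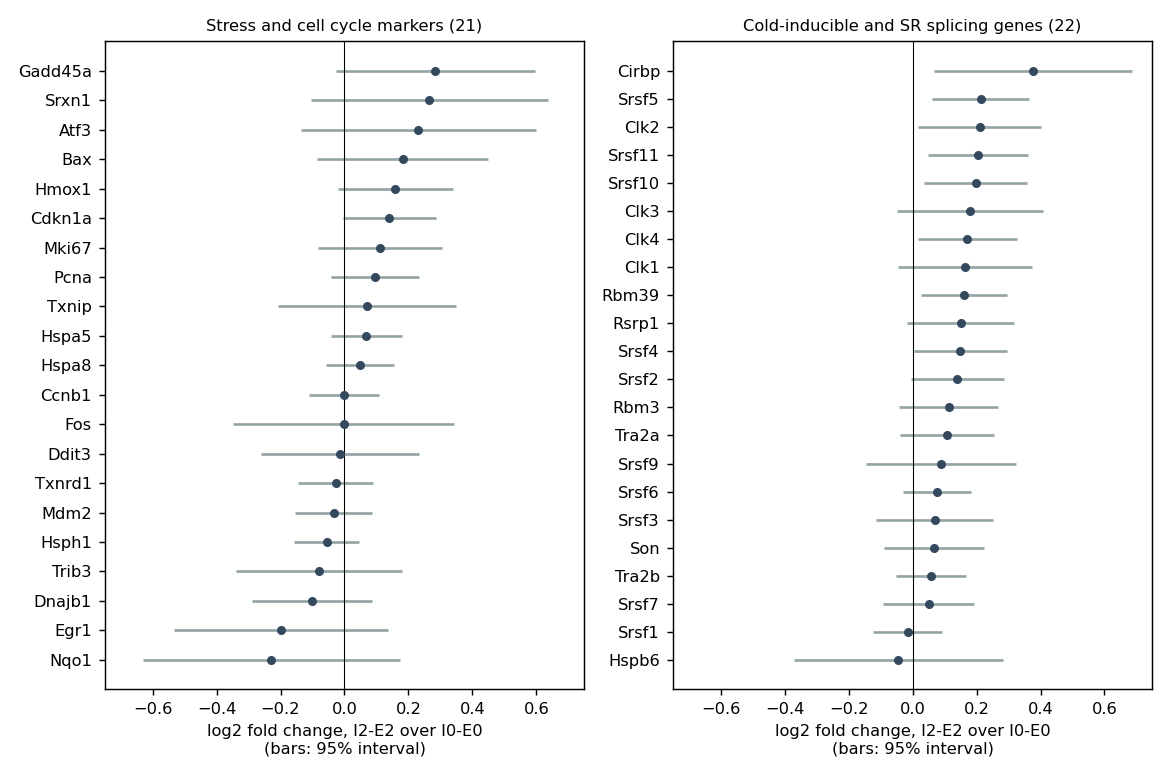
Log2 fold change of I2-E2 over I0-E0 (points) with its 95% interval (bars) for the 21 stress and cell cycle markers tested, left, and the 22 cold-inducible and SR splicing genes, right. All 21 intervals on the left include 0, and 20 of 22 points on the right lie above it.

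The gene lists followed the same course. They were 35 in number, of which 28 had at least 5 tested genes, and 0 members passed the adjusted threshold in any. Without I0-E0 replicate 3 the median of the replication-dependent histones moved by 0.17, that of the mitochondrial-encoded mRNAs by 0.08, and the others by at most 0.038. That of 5 lists, all near 0, turned sign (immediate-early, apoptosis, interferon-stimulated, metal response and N2A identity genes). In 26 of the 28 the library medians of the groups overlapped, and in 2 they did not. Of single genes tested, 10.2% had groups that did not overlap, so separation in 2 of 28 lists is a description. Beside all genes, of which 50.9% lay above 0, the 38 heat shock genes had 22 above 0 and a median of 0.02, the 39 oxidative stress genes 24 and 0.03, the 35 integrated stress response genes 14 and -0.02, the 34 unfolded protein response genes 20 and 0.03, and the 30 apoptosis genes 15 and 0.00. Of the 173 genes in these 5 lists 6 (3.47%) had an unadjusted p under 0.05, beside 6.12% of all genes tested. They were Cdc37 (0.24) and Bag2 (-0.17), both of chaperone complexes, Ppp1r15a (0.20), which reverses eIF2α phosphorylation, Dnajb9 (0.21) and Edem3 (-0.18) of the endoplasmic reticulum, and Casp2 (-0.20).

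Of 38 p53 and DNA damage genes 21 lay above 0, with a median of 0.03. Gadd45g, a growth arrest gene, was at 39.0, 43.2 and 32.1 CPM in I2-E2 and at 33.8, 23.4 and 22 in I0-E0, with NC at 22.6 to 28.8. The groups overlapped through I0-E0 replicate 1, and the log2 fold change was 0.52 (SE 0.15, adjusted p = 0.692). Ccng2, a cyclin of arrested cells, had 0.33 (SE 0.14). The 50 immediate-early genes had 26 above 0 and a median of 0.03, or -0.01 with 24 above 0 without I0-E0 replicate 3. Of the 50, 6 (12%, beside 6.12% of all genes) had an unadjusted p under 0.05, 3 higher and 3 lower. I2-E2 lay wholly above I0-E0 for 4 (8% beside 4.57%) and wholly below for 5 (10% beside 5.63%). Within the list the ERK phosphatase genes Dusp6 and Dusp4 had -0.30 (SE 0.09) and -0.18 (SE 0.07) with I2-E2 below I0-E0 in all libraries. Npas4, an activity-dependent factor at 1.26 to 3.20 CPM, had 0.87 (SE 0.35).

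Cell cycle lists had medians near 0. The 54 S phase genes had 33 above 0 and a median of 0.02, with 3 members (5.56%, beside 6.12% of all genes) at an unadjusted p under 0.05, namely Pole2 (0.20) and Slbp (0.17) above and Rfc5 (-0.15) below. The 63 G2 and mitosis genes had 31 above 0, a median of 0.00 and a range of -0.10 to 0.20, and none had an unadjusted p under 0.05. The 11 replication-dependent histone genes tested, which polyA selection captures poorly, had a median of 0.04, or 0.21 without I0-E0 replicate 3, and included Hist1h1e (0.87, SE 0.38).

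The lipid synthesis, MondoA and lysosome lists had medians slightly below 0, and the hypoxia and glycolysis list slightly above. Of 25 cholesterol synthesis genes 10 lay above 0, with a median of -0.06, or -0.02 without I0-E0 replicate 3. Dhcr7, a late enzyme of the pathway, was at 51.1, 46.7 and 47.5 CPM in I2-E2 and at 58.2, 54.8 and 64.2 in I0-E0, with NC at 53.5 to 58.2. Its log2 fold change was -0.29 (SE 0.07, adjusted p = 0.617), and that of Sc5d was -0.28 (SE 0.13). Of 26 fatty acid synthesis genes 8 lay above 0 (median -0.03), of 34 hypoxia and glycolysis genes 18 (median 0.01, with Pfkfb4 at -0.57 and Adm at 0.64, both under 5 CPM), of 9 MondoA targets 3 (median -0.03, with Hbp1 at -0.30) and of 36 lysosome and autophagy genes 14 (median -0.02, with Atg5 at -0.18).

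The cold-inducible and SR splicing list holds RNA-binding proteins that rise on cooling, serine- and arginine-rich splicing factors and related proteins, kinases that phosphorylate them, and Hspb6, a small heat shock protein gene. Of its 22 genes 20 lay above 0, with a median of 0.14, and Srsf1 (-0.02) and Hspb6 (-0.05) lay below. Its library medians were 0.01, 0.16 and 0.00 in I2-E2 and -0.04, -0.07 and -0.09 in I0-E0, relative to the mean of the 6, so the groups did not overlap. NC, at -0.13, 0.01 and 0.03, spanned both. Of the 22 members 8 had an unadjusted p under 0.05 and were higher in I2-E2, beside 2.77% of all genes. They were the splicing factors Srsf5 (0.21), Srsf11 (0.21), Srsf10 (0.20) and Srsf4 (0.15), the kinases Clk2 (0.21) and Clk4 (0.17), Rbm39 (0.16) and the cold-induced Cirbp (0.38). Srsf5 was at 435, 457 and 386 CPM in I2-E2 and at 369, 374 and 359 in I0-E0, with NC at 323, 366 and 396. Cirbp was at 53.9, 56.1 and 38.7 CPM against 43.1, 30.4 and 40.1, groups that overlap. The list was chosen with earlier results of these data known, and no member passed the test (smallest adjusted p = 0.737, edgeR). Without I0-E0 replicate 3 the median was 0.12. In that edgeR fit the unadjusted p of Srsf11, Srsf10 and Srsf4 was 0.082, 0.056 and 0.17, and that of Srsf5 and Cirbp 0.031 and 0.024. The groups of Srsf4 overlapped with all libraries. Of the 22 members 9 share sequence with other genes, among them Srsf4, Srsf5 and Srsf10, beside 37.4% of all genes tested.

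The circadian clock list was the other with library medians that did not overlap, narrowly, at 0.03, 0.05 and 0.05 in I2-E2 and -0.06, 0.03 and -0.09 in I0-E0. Of its 17 genes 12 lay above 0, with a median of 0.06, and 0 had an unadjusted p under 0.05.

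**Figure D5:**
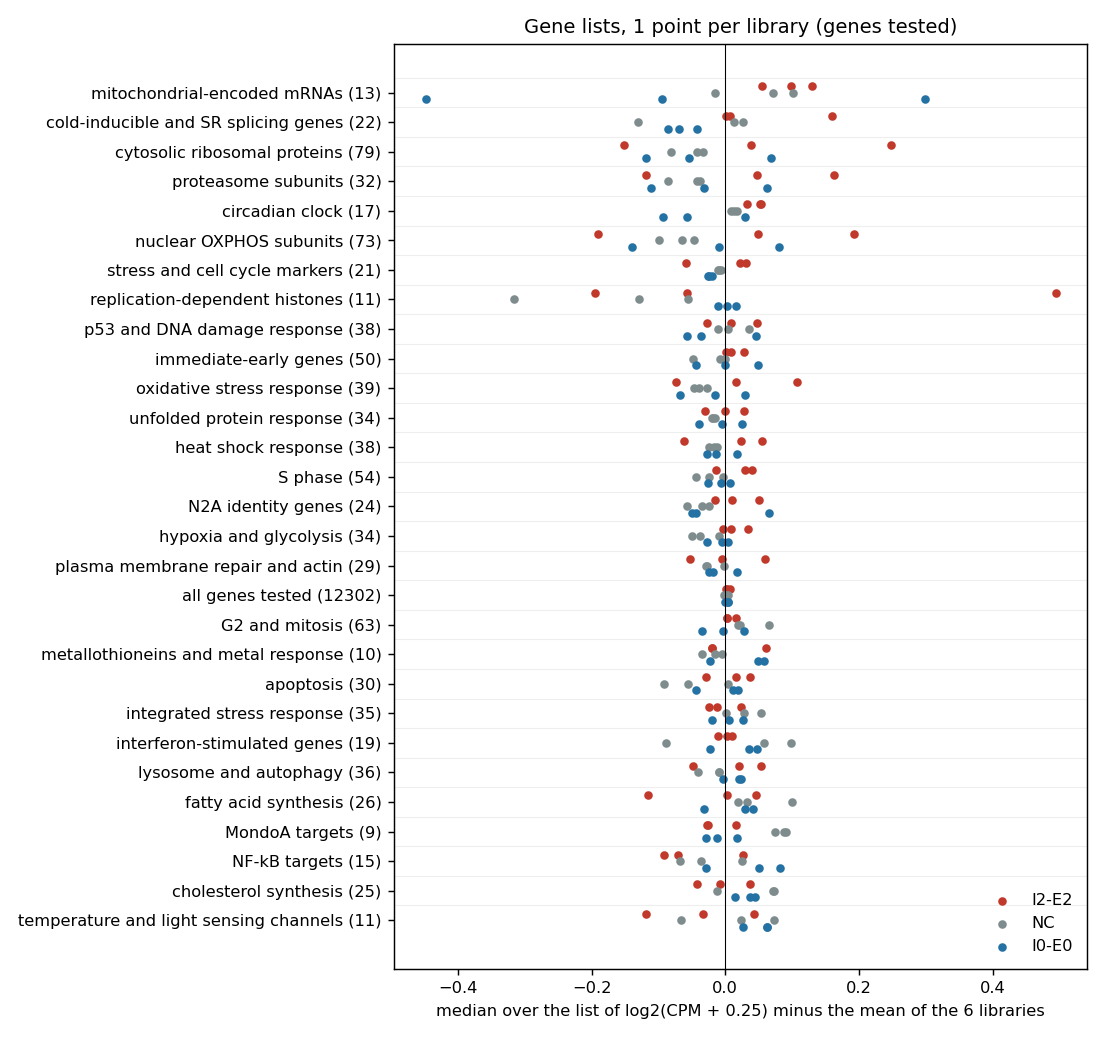
Median over each gene list of log2(CPM + 0.25) less the mean over the 6 libraries of I2-E2 and I0-E0, 1 point per library, for I2-E2 (red), I0-E0 (blue) and NC (grey). The number of tested genes is in brackets, and the lists are ordered by their median log2 fold change from temperature and light sensing channels (-0.11) to mitochondrial-encoded mRNAs (0.27).

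Lists of short, abundant transcripts lay above 0 with wide spread between libraries. Of 79 cytosolic ribosomal protein genes 72 lay above 0, with a median of 0.09, but the library medians were 0.04, 0.25 and -0.15 in I2-E2 and 0.07, -0.12 and -0.05 in I0-E0, and the highest and the lowest were both in I2-E2. Fau (0.25) and Rps18 (0.20) had an unadjusted p under 0.05, and both share sequence with other genes. Of 32 proteasome subunits 26 lay above 0 (median 0.07), and of 73 nuclear oxidative phosphorylation subunits 52 (median 0.05, with Ndufs6 at 0.24 and Cox7a2 at 0.17). The same order of libraries was seen in the shortest 20% of all genes, of up to 2443 exon bases, with medians of 0.03, 0.12 and -0.08 in I2-E2 and 0.06, -0.07 and -0.02 in I0-E0. The part of this length-related spread in the list values was not tested.

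Of the 13 mRNAs that the mitochondrial genome encodes, 11 lay above 0, with a median of 0.27, the largest of the 28 lists. This rested on I0-E0 libraries that were far apart from each other. The library medians were 0.13, 0.10 and 0.06 in I2-E2 and -0.45, 0.30 and -0.09 in I0-E0, with NC at -0.02 to 0.10. mt-Cytb, the cytochrome b of complex III, was at 3185, 3051 and 3552 CPM in I2-E2 and at 1904, 3462 and 2183 in I0-E0, a log2 fold change of 0.38 (SE 0.17), and mt-Nd6, a complex I subunit, had 0.32 (SE 0.15). No mitochondrial mRNA had groups that did not overlap.

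Of 29 plasma membrane repair and actin genes 16 lay above 0 (median 0.00). An unadjusted p under 0.05 was found for 6 of them (20.7%, beside 6.12% of all genes), 4 higher and 2 lower. I2-E2 lay wholly below I0-E0 for 4, or 13.8% beside 5.63%, and wholly above for 1, or 3.45% beside 4.57%. Beside Actb, described above, Actg1, the other cytoplasmic actin, had -0.12 and Tagln, an actin-bundling protein gene at 1.58 to 3.55 CPM, had 0.85. Of 15 NF-kB targets 6 lay above 0 (median -0.04, with Tnfaip3 at -1.02 from 0.833 to 2.63 CPM), of 19 interferon-stimulated genes 9 (median -0.02), of 10 metal response genes 5 (median 0.00), and of 11 temperature and light sensing channels 3 (median -0.11, 0 members at an unadjusted p under 0.05). The channels had the lowest median of the 28 lists. Of the 24 N2A identity genes 14 lay above 0 (median 0.01), with Nes at 0.30 and Ncam1 at -0.17. Of the nuclear-retained RNAs 1 was tested (0.50, groups not overlapping, no unadjusted p under 0.05).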

How the data were processed

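Bulk polyA RNA was sequenced from N2A cells. The authors quantified each library with Salmon, per the labels, and deposited an estimated count of reads per transcript (not whole, not normalized between libraries). Its version and options, the transcript release and the build were not given in the sources used here. GENCODE vM21 (GRCm38) held 98.7% of the transcripts and supplied gene names and 1-based coordinates. Unmatched ones held 0.634% to 0.683% of the reads of a library and were left out. Estimated counts were summed over 34162 genes and rounded. The kit does not mark strand, so overlapping genes cannot be separated by it.

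All 15 libraries of batch 1 were fitted together, without the 5 of batch 2, with edgeR (filterByExpr at a minimum count of 10, TMM, glmQLFit, glmQLFTest, group the sole factor, 10 residual degrees of freedom, common biological coefficient of variation 8.26%), and p-values were adjusted by Benjamini-Hochberg over all genes tested at a threshold of 0.05. Levels are CPM over TMM library sizes unless stated. The fits were tested on simulated data, and no replicate pair among I2-E2, I0-E0 or NC agreed within sampling noise (chi-square per degree of freedom 2.46 to 10.4). Average intensity was computed as power over the squared spot width.

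Members and gene lists were chosen with earlier results of these data known. Named genes were those past the threshold, then, up to 10 a direction, protein-coding genes of at least 5 CPM with groups that did not overlap and the smallest unadjusted p, then 24 markers, and up to 3 examples a list by smallest unadjusted p. Further cold-inducible and SR splicing genes at an unadjusted p under 0.05, Pi4ka and Olfr729 were added after their values were seen. Some genes that this rule names are not reported here. Genes with under 95% of their 31-base words unique in the annotation are said to share sequence. Other normalizations, filters and tools, and fits without 1 library each, were tried. Fits ran in R 4.3.3 with DESeq2 1.42.0, limma 3.58.1 and edgeR 4.0.16. Tables and plots used Python 3.11.15 with pandas 2.3.3, matplotlib 3.10.9 and numpy 2.4.6.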

Additional observations from a re-analysis of the deposited data

Results flagged for a closer look

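I0-E0 replicate 3 held reads of 1378 genes that had none in the other 14 libraries of its batch. The genes lie outside the comparison, since none reached the minimum of the test, and the number was above the 128 to 154 genes read in 1 NC library alone. How these reads came into the library was not tested.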

How the results depend on the processing

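The count of genes past the adjusted threshold was 0 with edgeR and stayed 0 with DESeq2 size factors, a minimum mean of 5 CPM, the 6 libraries alone, limma-voom and the replicate block. It was 1 with library totals, 2 with protein-coding genes only and 2 with DESeq2, all of them Fam220a entries. With both entries summed it was 0 in each of these settings and without I0-E0 replicate 3 (settings chosen after seeing the data). It was 91 without the filter, and, in settings chosen after seeing the data, 65 without both the filter and I0-E0 replicate 3, and 3 in the 5 libraries of both groups left without that replicate. Leaving out 1 library at a time gave 0 to 1, the 1 without I0-E0 replicate 3. Genes at an unadjusted p under 0.05 numbered 753, and 1171 without the filter, 499 with DESeq2 (497 with the Fam220a entries summed), 354 in the 5 libraries, and 575 to 1223 with 1 library left out, the highest without I2-E2 replicate 3. The cause of these moves was not tested, apart from the fewer genes or samples that a setting holds.

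Replicate numbers did not pair the samples. Same-numbered libraries of I2-E2 and I0-E0 had correlations of 0.07, -0.21 and -0.16 between their deviations from the group means, and not every library correlated best with its own number. The replicate block gave 0 calls and 697 genes at an unadjusted p under 0.05.

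Of the 98 gene entries followed through 18 settings, 8 turned direction. Pecam1, at -0.42, had 0.43 without the filter and I0-E0 replicate 3, 0.45 in the 5 libraries and -0.76 to 0.44 with 1 library left out, the highest without I0-E0 replicate 3. The other 7 were under 0.1 in size with all libraries. Ccnb1 had 0.000878 with limma-voom, 0.00045 with the replicate block, 0.0042 in the 5 libraries and -0.036 to 0.027 with 1 library left out. Ddit3 had 0.0048 in the 5 libraries and -0.048 to 0.0037 with 1 left out. Fos had 0.00851 without the filter and I0-E0 replicate 3, 0.023 in the 5 libraries and -0.11 to 0.10 with 1 left out, and Txnrd1 -0.075 to 0.031 with 1 left out. Srsf1 had 0.0025 without the filter and I0-E0 replicate 3, 0.016 in the 5 libraries and -0.042 to 0.015 with 1 left out, Txnip -0.032 to 0.14 and Srsf3 -0.021 to 0.17. List medians moved by more than the spread between libraries in 18 of 504 values. Genes read in I0-E0 replicate 3 alone numbered 9 at 5 or more reads. Depth limits genes under 3 CPM, where the interval stayed within 2-fold for 19.8% of genes.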

Other observations

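A family outside the lists was noticed after the values were seen. Of 340 tested genes named Zfp and a number, many of which encode zinc-finger DNA-binding proteins, 113 (33.2%) lay above 0, beside 50.9% of all genes tested, with a median log2 fold change of -0.08. The groups did not overlap for 40 with I2-E2 lower and for 11 with I2-E2 higher, or 11.8% and 3.24% beside 5.63% and 4.57% of all genes tested. An unadjusted p under 0.05 was found for 36 lower and 6 higher, or 10.6% and 1.76% beside 3.35% and 2.77%. Of the 340 genes 160 (47.1%) share sequence with other genes, beside 37.4% of all genes tested. The library medians were -0.05, -0.05 and 0.01 in I2-E2 and 0.00, 0.08 and 0.05 in I0-E0, so the groups overlapped by that measure, with NC at 0.04 to 0.05. Without I0-E0 replicate 3 the median was -0.07. Against NC the median was -0.06 for I2-E2 and 0.00 for I0-E0. No gene of this family passed the adjusted threshold in edgeR, and the choice after seeing the values makes these counts a description.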
